A study of Mus musculus with 5 samples.

Results

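Expression of 9 genes of the monocyte lineage was followed through single-cell transcriptomes of mouse bone marrow. The genes, F13a1, Ly86, Ccr2, Cx3cr1, Trem2, Ms4a6c, Klf4, Slpi and Pld4, were taken from the 15287 genes of one table of UMIs (unique molecular identifiers, each standing for 1 captured RNA molecule). They were chosen by their own UMI counts in these cells, with their pattern already known, namely by the order in which they appeared among cells with UMIs of Irf8 and Mpo and by their overlap with neutrophil genes. Their levels and shares are therefore given as descriptions without p-values, and tests were kept for gene lists that hold none of them. Those lists were also chosen with earlier results of these data known.

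The study profiled native hematopoiesis by sorting bone marrow cells and running them on the 10x Chromium 3' platform. All mice were 20 weeks old, untreated and of one genotype, Fgd5CreERT2/+Rosa26Tomato/+, in which the Fgd5 allele also drives ZsGreen, so every library carried the same alleles and no group lacked the reporter. The Rosa26 Tomato allele needs Cre activated by tamoxifen, which was not given. There were 5 libraries from 3 sorts, with 12893 cells in all. Lineage-negative c-kit+ cells (Lin-kit+) gave 3 libraries, named a, b and c here, with 1339, 4095 and 6147 cells. Reporter-positive cells gave the libraries called Fgd5+ (793 cells, c-kit+ ZsGreen+) and HSC-Fgd5+ (519 cells, with Sca1+CD150+CD48neg added to the gate). The cells of a library were recognised by the suffix of their barcodes and its cell number, and the titles and source names of the 2 reporter-positive libraries disagreed on which held which gate, so these were tested together. The labels did not say whether libraries came from separate mice, so each p-value measures the spread between libraries, which may be technical. Library totals ran from 2166655 to 36080242 UMIs, the median cell held 3721 to 6567 UMIs depending on the library, 62 barcode sequences occurred in more than 1 library, and Scrublet called 1.28% of cells doublets.

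Monocytes, dendritic cells and neutrophils share progenitors in the marrow. The transcription factor Irf8 is required for monocyte and dendritic cell fates, whereas myeloperoxidase (Mpo) and the serine proteases Elane, Prtn3 and Ctsg fill the primary granules of granulocyte-monocyte progenitors. Cells that go on to make neutrophils then turn on Gfi1 and Cebpe and later the secondary granule genes, while monocyte precursors acquire Csf1r, Ly6c2 and chemokine receptors.

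Ccr2 and Cx3cr1 encode the chemokine receptors that mark inflammatory and patrolling monocytes, and Trem2 encodes a lipid-sensing receptor of myeloid cells. Ly86 encodes MD-1, the partner of the Toll-like receptor homologue Cd180, and Ms4a6c a four-pass membrane protein. F13a1 encodes the catalytic chain of coagulation factor XIII, Slpi a secreted inhibitor of neutrophil elastase and cathepsin G, and Pld4 an endolysosomal exonuclease. Klf4 is a zinc finger transcription factor needed for monocyte development. In GENCODE M21 on GRCm38, the build of the count table (mm10), F13a1 lies at chr13:36867178-37050244 on the minus strand, 295 kb from Ly86 (chr13:37345208-37419036, plus strand), whereas Cx3cr1 (chr9:119901616-120069879, minus) and Ccr2 (chr9:124101950-124113557, plus) share a chromosome but lie 4032 kb apart. Trem2 (chr17:48346401-48354147, plus), Ms4a6c (chr19:11469366-11482192, plus), Klf4 (chr4:55527143-55532466, minus), Slpi (chr2:164354070-164389095, minus) and Pld4 (chr12:112760655-112768990, plus) lie elsewhere. Ms4a6c has close relatives in its cluster, and its 21030 UMIs in Lin-kit+ cells stood beside 2904 of Ms4a6b and 377 of Ms4a6d. Reads shared by these near copies cannot be assigned with certainty, so its level is uncertain to that extent.

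The promoters of 4 genes are shown, those of the 3 genes highest in monocyte-like cells (F13a1, Trem2 and Slpi) and, for contrast, that of Pld4, which was highest in dendritic-like cells. Each run holds the 250 bases before a RefSeq start (GRCm38.p6), 5' to 3' on the gene's strand, with none of its bases in a GENCODE exon. Capitals mark GAGGAA, the core of sites of the myeloid ETS factor PU.1, or TTGCNNAA, a C/EBP motif, on either strand, so TTCCTC is GAGGAA read from the other strand. The match lay 66 bases before the start for F13a1, 40 for Trem2 and 241 for Slpi, and Pld4 had none.
F13a1, chr13:37050245-37050494, minus strand: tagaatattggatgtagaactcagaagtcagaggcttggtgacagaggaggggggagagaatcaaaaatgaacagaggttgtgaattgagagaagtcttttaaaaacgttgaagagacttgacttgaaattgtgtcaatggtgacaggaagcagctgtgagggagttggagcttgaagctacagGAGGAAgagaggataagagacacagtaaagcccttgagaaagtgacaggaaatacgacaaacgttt
Trem2, chr17:48346151-48346400, plus strand: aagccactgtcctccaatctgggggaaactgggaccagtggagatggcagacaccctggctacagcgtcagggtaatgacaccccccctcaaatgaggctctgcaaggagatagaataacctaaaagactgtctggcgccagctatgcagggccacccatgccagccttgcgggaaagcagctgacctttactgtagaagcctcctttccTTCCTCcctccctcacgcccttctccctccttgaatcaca
Slpi, chr2:164356508-164356757, minus strand: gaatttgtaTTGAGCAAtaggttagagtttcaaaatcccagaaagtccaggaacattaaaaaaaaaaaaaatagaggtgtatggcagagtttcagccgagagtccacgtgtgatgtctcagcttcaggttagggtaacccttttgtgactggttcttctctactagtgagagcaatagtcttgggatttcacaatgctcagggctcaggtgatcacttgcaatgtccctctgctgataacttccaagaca
Pld4, chr12:112760405-112760654, plus strand: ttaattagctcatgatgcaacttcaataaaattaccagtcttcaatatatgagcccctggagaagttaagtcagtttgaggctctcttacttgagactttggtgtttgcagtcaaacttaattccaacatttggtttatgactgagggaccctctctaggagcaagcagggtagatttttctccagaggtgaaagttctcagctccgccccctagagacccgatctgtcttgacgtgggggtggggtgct
GAGGAA occurred in 2 of the 10 promoter windows of the 9 genes (F13a1 has 2 starts), 1 for F13a1 and 1 for Trem2, and in 23.3% of 32851 RefSeq windows of the same length. TTGCNNAA occurred in the window of Slpi alone among the 10 and in 9.56% of all windows. An ETS-IRF composite motif (GGAA and GAAA with any 2 bases between, 2.301% of all windows) and a paired IRF motif (GAAA and GAAA with any 2 bases between, 2.98%) were found in none of the 10. All were searched on both strands, and a composite match can overlap a GAGGAA match. These letters describe the windows and say nothing of factor binding.

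In the sorted populations, all 9 genes were far lower in reporter-positive than in Lin-kit+ cells, and the 3 Lin-kit+ libraries lay close together. F13a1 reached 184, 183 and 182 CPM (counts per 1000000 UMIs) in Lin-kit+ a, b and c against 5.28 in Fgd5+ and 0.923 in HSC-Fgd5+ cells. Slpi gave 374, 368 and 375 CPM against 5.04 and 1.85. The libraries of the 2 groups did not overlap for any of the 9 genes. By another measure, an edgeR adjusted p under 0.05, 63.1% of all genes tested differed and 30.4% were lower in reporter-positive cells. The share of all genes without overlap was not computed. Ms4a6c had the highest level of the 9 in both reporter-positive libraries, with 318, 311 and 334 CPM against 31.4 and 22.6. The receptors Ccr2 (63.5, 57.5 and 55.7 CPM), Cx3cr1 (14.3, 13.3 and 14.1) and Trem2 (16.3, 13.7 and 14.4) had 6.48, 0.480 and 0.2399 CPM in Fgd5+ cells. None of these 3 had a UMI in HSC-Fgd5+ cells, where 3 counts would be 1.38 CPM. Ly86, Klf4 and Pld4 averaged 46.1 ± 4.70, 15.6 ± 0.662 and 70.2 ± 5.04 CPM in Lin-kit+ libraries (SD, n = 3). The plot of levels by library shows the separation of the sorts.

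**Figure D1:**
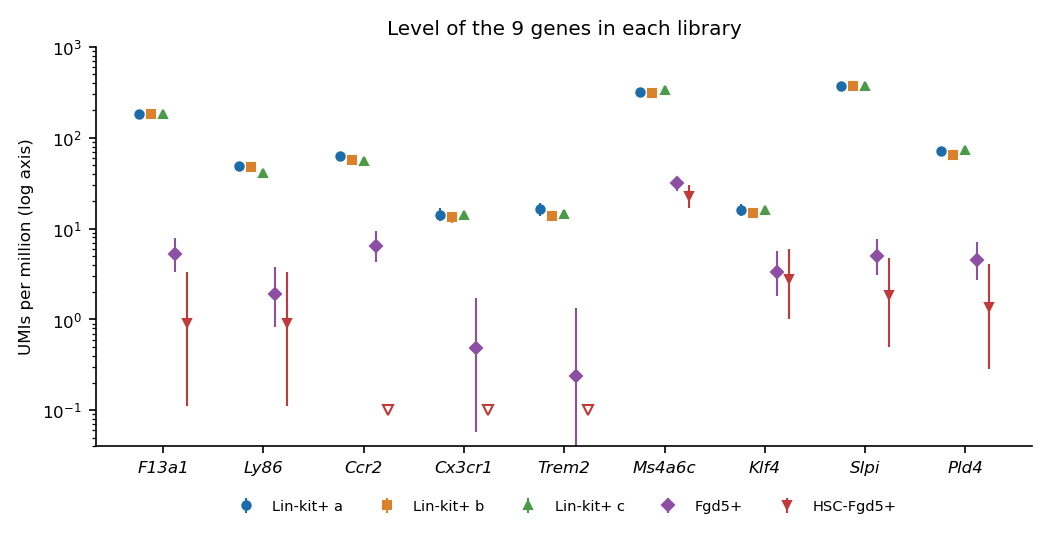
CPM (log axis) of each of the 9 genes in the 3 Lin-kit+ libraries and the Fgd5+ and HSC-Fgd5+ libraries, with 95% Poisson intervals that cover counting error only. Open symbols at the foot of the axis mark genes with no UMI in HSC-Fgd5+ cells (Ccr2, Cx3cr1 and Trem2). Ms4a6c is the gene with the highest reporter-positive level, 31.4 and 22.6 CPM.

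Fitted with edgeR on library sums, the log2 difference of reporter-positive from Lin-kit+ cells ranged from -7.12 ± 0.23 (SE) for Slpi and -6.97 ± 0.41 for Trem2 to -2.84 ± 0.18 for Klf4. Values between these were -6.16 ± 0.33 for F13a1, -5.94 ± 0.38 for Cx3cr1, -5.40 ± 0.25 for Ly86, -4.90 ± 0.28 for Pld4, -4.38 ± 0.51 for Ccr2 and -4.07 ± 0.15 for Ms4a6c. A sum over a library cannot tell fewer expressing cells from fewer UMIs per cell. The whole transcriptome differed between these sorts, with 3646 of 11991 tested genes lower and 3921 (32.7%) higher in reporter-positive cells at an edgeR adjusted p under 0.05 (scaled by library totals, 1993 genes were lower and 6586 higher, and the median log2 difference of all genes moved from 0.07 to 0.60). Among lists without the 9 genes, 11 of 12 monocyte genes fell in reporter-positive cells, with a median log2 difference of -2.83. Ly6c2 fell by 8.56 ± 0.37 on the log2 scale (SE, adjusted p = 4.80e-06, edgeR), Csf1r by 6.57 ± 0.40 (1.50e-05) and Ccl9 by 4.73 ± 0.37 (4.54e-05). All 10 early neutrophil genes and 9 of 10 late neutrophil genes fell as well, with medians of -5.78 and -6.49, and Elane and Camp led them at -8.62 ± 0.90 and -7.41 ± 1.28. The 8 stem cell genes all rose, led by Procr at 5.20 ± 0.14. Of 10 dendritic genes tested, 2 rose and 5 fell. The macrophage list went the other way from the monocyte list, since 5 of its 8 tested genes rose and 2 fell. All 14 S phase genes and all 14 mitosis genes fell in reporter-positive cells. The part of cell division in the differences between sorts was not tested.

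Most reporter-positive UMIs of F13a1, Ly86, Ccr2 and Pld4 came from a handful of cells, but not those of Ms4a6c, Klf4 and Slpi. There were 5 Fgd5+ cells with 4 or more of the 9 genes, of which 3 clustered with dendritic-like, 1 with monocyte-like and 1 with unnamed cells. They carried 20 of the 22 Fgd5+ UMIs of F13a1, 22 of 27 of Ccr2, all 8 of Ly86, 13 of 19 of Pld4, both of Cx3cr1 and the single one of Trem2, but 42 of 131 of Ms4a6c, 4 of 14 of Klf4 and 3 of 21 of Slpi. Without these 5 cells, left out after the data were seen, F13a1 stood at 0.483 in place of 5.28 CPM and Ccr2 at 1.21 in place of 6.48 CPM in Fgd5+ cells, whereas Ms4a6c stood at 21.5 in place of 31.4 CPM and Slpi at 4.35 in place of 5.04 CPM. In the 1200 reporter-positive cells of the HSC-like cluster, Ms4a6c had 121 UMIs, or 23.0 CPM (95% Poisson interval 19.1 to 27.5, counting error only). Klf4 had 15 UMIs there (2.85 CPM, 1.60 to 4.71), Slpi 14 (2.66 CPM, 1.46 to 4.47), Pld4 6, Ccr2 3 and F13a1 2, whereas Ly86, Cx3cr1 and Trem2 had none, which allows up to 0.702 CPM. The interval of Ms4a6c lay above those of the other 8 genes, and Irf8 itself had 7.04 CPM (4.95 to 9.70) there.

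To place the genes in cell types, cells were clustered without the 9 genes and Fgd5, and all but 3 of 20 clusters were named from marker lists. F13a1, Slpi and Trem2 were highest in monocyte-like cells, whereas the other 6 genes had their highest mean in dendritic-like cells, so the 9 together do not mark monocyte-like cells alone. F13a1 had 522 ± 14.6 CPM in monocyte-like cells (SD over 3 Lin-kit+ libraries), 39.0 ± 4.39 in early neutrophil-like and 26.3 ± 1.75 in dendritic-like cells. Slpi had 876 ± 25.9 CPM in monocyte-like cells but also 234 ± 7.11 in early and 146 ± 11.4 in late neutrophil-like cells, and 14.6 ± 4.17 in dendritic-like cells. Trem2 was the most restricted, with 55.8 ± 2.70 CPM in monocyte-like cells and no UMI in 516 dendritic-like or 2161 early neutrophil-like cells, which made it at least 31.0-fold lower in the former (against 3 counts over the class, 1.79 CPM) and at least 249-fold lower in the latter (0.223 CPM). The class with the highest mean was the same for all 9 genes at resolutions 0.5 and 2, with 30 components, with the 9 genes kept and without doublets.

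The genes of dendritic-like cells differed in how much monocyte-like cells shared them. Ccr2 had 526 ± 60.1 CPM in dendritic-like against 144 ± 8.47 in monocyte-like cells, and Pld4 440 ± 49.4 against 206 ± 14.9. Klf4 (83.9 ± 13.7 against 50.7 ± 1.17) and Ly86 (158 ± 5.95 against 122 ± 13.04) were closer, with no overlap of the libraries. Ms4a6c reached 973 ± 47.6 and 865 ± 52.3 CPM. Cx3cr1 could not be ordered, since its 37.4 ± 8.53 CPM in dendritic-like, 35.7 ± 1.46 in monocyte-like and 33.1 ± 6.17 in mast or basophil-like cells overlapped. In mast or basophil-like cells Ms4a6c, at 110 ± 9.89 CPM, was the only one of the 9 genes above 100 CPM. Erythroid-like cells held at most 3.34 CPM of any of the 9, which the plot of levels by class shows beside the other classes.

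**Figure D2:**
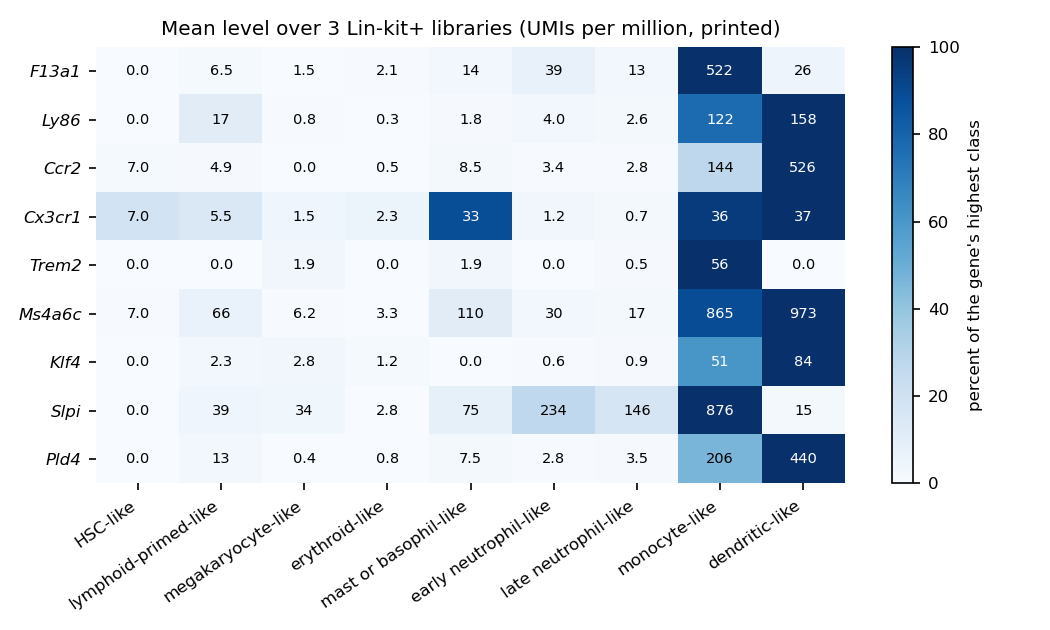
Mean level of each gene (rows) in the named classes of Lin-kit+ cells (columns), printed in CPM and shaded by the percent of the gene's highest class. F13a1, Trem2 and Slpi peak in monocyte-like cells (522, 55.8 and 876 CPM), and the other 6 genes peak in dendritic-like cells, where Cx3cr1 overlaps with the next 2 classes.

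Cells were next arranged by Irf8 and Mpo after each was thinned to 2000 UMIs, leaving out 660 shallower Lin-kit+ cells. A cell with at least 1 Irf8 UMI counted as an Irf8 cell and one with at least 3 Mpo UMIs as an Mpo cell, which gave 4098 Mpo cells without Irf8, 2452 cells with both and 1043 Irf8 cells with low Mpo. The order is across cells taken at one time, not a time course. Among Mpo cells, those with Irf8 had higher levels of all 9 genes. F13a1 had 90.9, 113 and 94.1 CPM in Mpo cells without Irf8 and 443, 473 and 494 CPM in cells with both (libraries a, b and c). Trem2 had 8.46, 5.38 and 6.72 CPM and then 36.5, 41.8 and 42.6 CPM, and Slpi 283, 303 and 292 CPM and then 813, 781 and 818 CPM. The libraries did not overlap for any of the 9 genes between these 2 classes. By another measure, an edgeR adjusted p under 0.05, 39.4% of all genes tested differed and 20.7% were higher in cells with Irf8. The share of all genes without overlap was again not computed.

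In Irf8 cells with low Mpo the 9 genes parted into 2 patterns. F13a1 (190, 102 and 148 CPM), Slpi (218, 185 and 244) and Trem2 (7.04, 2.97 and 9.75) were lower there than in cells with both, in all 3 libraries. Ccr2 had 119 ± 11.4 CPM in cells with both and 246 ± 9.17 with low Mpo (SD, n = 3 libraries), Pld4 146 ± 11.4 and 248 ± 6.29, Klf4 29.4 ± 2.96 and 48.7 ± 6.64, and Cx3cr1 23.3 ± 2.82 and 37.4 ± 5.12. Ly86 (98.5 ± 16.2 and 124 ± 26.7 CPM) and Ms4a6c (744 ± 37.3 and 711 ± 56.3 CPM) had means within the spread between libraries. Within libraries, cells with both had 67.2, 98.5 and 76.1% of the low-Mpo level for Ly86 and 109, 103 and 102% for Ms4a6c, each in one direction in all 3. The plot of levels by Irf8, Mpo and Cd74 shows both patterns.

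**Figure D3:**
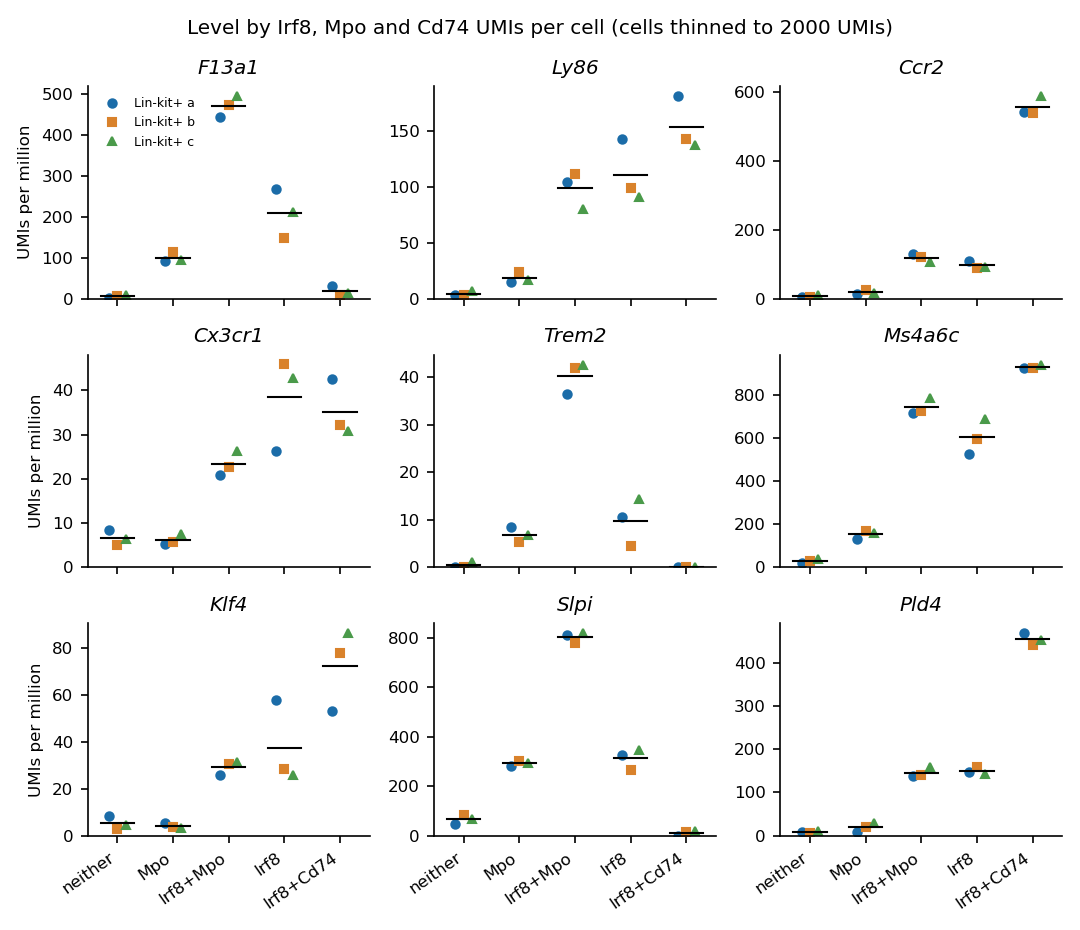
Level of each gene in CPM (linear axes from 0, cells thinned to 2000 UMIs) in Lin-kit+ cells with neither Irf8 nor Mpo, Mpo without Irf8, both, and Irf8 with low Mpo split by fewer than 3 (Irf8) or at least 3 Cd74 UMIs (Irf8+Cd74). Points are libraries a, b and c and bars their mean. F13a1, Trem2 and Slpi peak in cells with both (470, 40.3 and 804 CPM), whereas Ccr2 and Pld4 peak in Cd74 cells (558 and 454 CPM).

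A split on Cd74, added after the data were seen, separated the second pattern. Cd74, the invariant chain of MHC class II and a dendritic marker, had at least 3 UMIs in 335 of the 1043 Irf8 cells with low Mpo. In those, Ccr2 reached 558 ± 27.4 CPM, Pld4 454 ± 13.9, Ms4a6c 932 ± 10.4 and Klf4 72.6 ± 17.3, whereas Trem2 had no UMI, Slpi 11.1 ± 10.0 CPM and F13a1 18.4 ± 11.99. The other 708 cells had 97.1 ± 11.6 CPM of Ccr2, 149 ± 7.72 of Pld4, 209 ± 60.8 of F13a1 and 314 ± 41.6 of Slpi. Without the Cd74 cells, Ccr2 was thus higher in cells with both (118, 134 and 118% of the level in Irf8 cells with low Mpo), and Pld4 lay near level (94.2, 88.5 and 111%). F13a1 (165, 322 and 235%), Slpi (249, 292 and 235%) and Trem2 (346, 953 and 298%, from 15 UMIs in the low-Mpo cells) kept their direction, while Cx3cr1 was lower in cells with both (79.2, 49.3 and 61.5%). Klf4 (45.0, 107 and 122%) and Ly86 (73.3, 113 and 88.3%) differed in direction between libraries. When the dendritic-like clusters were left out in place of the Cd74 cells, the log2 ratio of cells with both over those with low Mpo was 0.86 for Ccr2, 0.20 for Klf4, 0.16 for Pld4 and 0.05 for Ly86, the opposite direction to that in all cells.

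Within Mpo cells, the 9 genes also differed in how much of their level was present in cells without an Irf8 UMI. As a percent of the level in the 313 Mpo cells with 4 or more Irf8 UMIs, Slpi was at 32.1 ± 1.75% with 0 Irf8 UMIs and 76.3 ± 7.79% with 1. F13a1 was at 18.0 ± 3.52% and 68.7 ± 4.44%, and Ms4a6c at 18.1 ± 1.26% and 78.5 ± 12.2%. Slpi thus had the highest share without Irf8. Klf4 (9.75 ± 3.56%), Pld4 (10.7 ± 3.01%), Ly86 (12.4 ± 6.17%), Trem2 (12.99 ± 6.33%) and Ccr2 (13.1 ± 1.83%) had the lowest shares, which did not differ beyond their spread. Cx3cr1, at 21.2 ± 7.84% from 19 UMIs in the top class, could not be placed. These shares do not give an order of onset, since Mpo cells without Irf8 also held more UMIs of neutrophil genes. Cebpe was found in 45.8% of them against 4.42% of cells with both. Elane had 16588 against 6725 CPM (means over libraries a, b and c). The part of neutrophil-like cells in the shares of the 9 genes was not tested.

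Among clusters, which were formed without the 9 genes, the 9 genes reached different shares of their level in the monocyte-like cluster led by Trem2. This comparison was added after the data were seen. The F13a1-led and Trem2-led clusters were picked by a leading gene that is itself among the 9. Leading genes of the Trem2-led cluster include Trem2, Klf4 and Pld4, and those of the F13a1-led cluster F13a1, Slpi and Ly86. The shares of these genes thus follow in part from the choice of clusters. The 4 clusters are called by leading genes, namely Cpa3 and Cd34 (433 Lin-kit+ cells), F13a1 (1446 cells), Trem2 (1370 cells, monocyte-like) and Lgmn (604 cells, monocyte-like). The F13a1-led cluster was unnamed since only 2 monocyte markers passed. The Cpa3- and Cd34-led cluster was unnamed too, with 2 eosinophil markers passing (Prg2 and Prg3). Whether these clusters follow one another in time was not tested. Irf8 had 168 ± 39.5, 586 ± 15.9 and 932 ± 18.7 CPM in the Cpa3- and Cd34-led, F13a1-led and Trem2-led clusters. Mpo had 3679 ± 56.7, 6653 ± 266 and 4632 ± 222 CPM there. In the F13a1-led cluster, F13a1 had 364, 389 and 383 CPM, or 67.5 ± 1.53% of the 543, 586 and 554 CPM in the Trem2-led cluster. Slpi stood at 67.2 ± 2.93%, Ms4a6c at 63.6 ± 0.528%, Ly86 at 70.2 ± 7.60% and Cx3cr1 at 74.8 ± 11.7%. These percentages overlapped between libraries, except that Ms4a6c lay under F13a1 and Slpi in all 3.

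The other 4 genes stood lower in the same cells. Trem2 had 20.2, 19.0 and 17.6 CPM in the F13a1-led cluster against 76.6, 71.1 and 72.0 CPM in the Trem2-led one, or 25.9 ± 1.23%. Klf4 stood at 22.8 ± 1.71%, Pld4 at 35.1 ± 2.14% and Ccr2 at 48.9 ± 3.93%, and in each library all 4 lay under the 5 genes above. In the Cpa3- and Cd34-led cluster, Ms4a6c was at 18.3 ± 0.849% and Ly86 at 12.9 ± 1.64%, whereas Trem2 (2 UMIs) and Klf4 (2 UMIs) were at 0.958 ± 0.979% and 1.83 ± 1.69%. The Lgmn-led cluster differed from the Trem2-led one in having 1297 ± 78.7 CPM of Irf8 but 309 ± 15.3 CPM of Elane against 6573 ± 354. Ly6c2 had 839 ± 78.9 CPM against 4437 ± 171 in the Trem2-led cluster, whereas Csf1r was alike (64.4 ± 9.72 and 62.0 ± 6.18). The name monocyte-like rested on 4 markers for the Lgmn-led cluster (Csf1r, Ctss, Mpeg1 and Emb) and on 9 for the Trem2-led one. Levels given for monocyte-like cells pool both clusters. In the Lgmn-led cluster Cx3cr1 was at 212 ± 58.4% and Ly86 at 114 ± 8.73%, but Trem2 at 11.7 ± 5.94% and Klf4 at 32.9 ± 9.78%. The plot of levels by cluster gives all 9 genes.

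**Figure D4:**
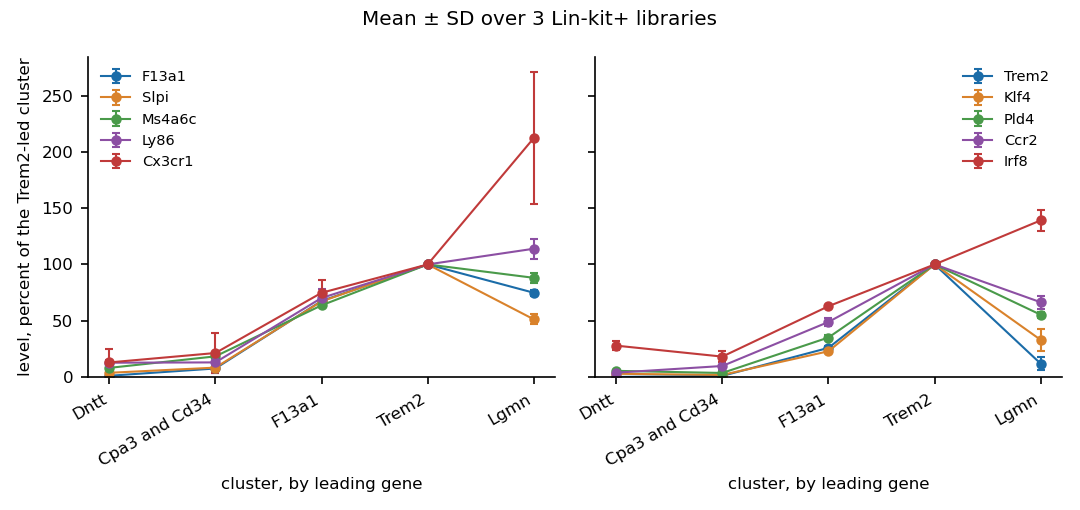
Level of each gene and of Irf8 as a percent of its level in the Trem2-led cluster, for 5 clusters of Lin-kit+ cells named by their leading genes (mean ± SD over 3 libraries). Lines join the points of a gene and carry no time. The F13a1-led and Trem2-led clusters were picked by leading genes that are among those shown. F13a1, Slpi, Ms4a6c, Ly86 and Cx3cr1 stand at 63.6 to 74.8% in the F13a1-led cluster and Trem2, Klf4, Pld4 and Ccr2 at 22.8 to 48.9%, and Cx3cr1 is highest in the Lgmn-led cluster.

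The 9 genes were found together in cells more often than their separate shares would give. These genes were chosen partly for this. Among Irf8 or Mpo cells, the ratio of observed to expected co-detection ran from 1.16 ± 0.0925 for Ccr2 with Slpi to 2.86 ± 0.354 for Ccr2 with Klf4, and Ccr2 with Pld4 stood at 2.56 ± 0.182. Of cells with Irf8 and Mpo, 94.3% had a UMI of at least 1 of the 9 genes and 29.0% of at least 4, against 3.21% and 0% of 810 erythroid-like cells at the same depth. Nearer classes shared this in part, with 47.7% and 4.22% of Mpo cells without Irf8 and 81.6% and 16.2% of Irf8 cells with low Mpo. Among the latter, cells with at least 3 Cd74 UMIs had 98.2% and 16.1%. Lin-kit+ cells positive for one of the genes were called doublets in 1.28% (Trem2) to 2.33% (Pld4) of cases, against 1.06% of all Lin-kit+ cells.

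Over the 20 clusters, the genes most like Ly86 in log2(CPM + 1) were Irf8 (Pearson r = 0.98) and Pkib (0.98), and those most like Pld4 were Pyhin1 (0.98) and Ms4a4c (0.98). Ccr2 went with Ms4a4c (0.96) and Ifi204 (0.95), Klf4 with Ahnak (0.95) and Mnda (0.94), and Ms4a6c with Irf8 (0.95) and Slc2a6 (0.94). Slpi and F13a1 shared Dirc2 among their 5 closest genes (0.90 and 0.89), and F13a1 was closest to Hpse (0.90) and Trem2 to 1700012B09Rik (0.90). Cx3cr1 was closest to Ms4a6c (0.87). The clusters come from the same libraries and differ in depth, so these are descriptions.

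Most cells with a UMI of any of the 9 genes also had a UMI of the early proteases Elane, Prtn3 and Ctsg, whereas few of those with the genes other than Slpi had Cebpe or Fcnb. Leaving out Slpi, positive cells had Elane and Ctsg less often than negative cells in all 3 libraries for 6 of 8 genes and Prtn3 for 5 of 8. Shares are of Irf8 or Mpo cells at 2000 UMIs, given for cells with and without a UMI of the gene as means over 3 libraries. Among F13a1-positive cells, 89.6 ± 0.379% had an Elane UMI, 98.5 ± 0.140% Prtn3 and 95.5 ± 1.20% Ctsg, against 78.3 ± 1.23%, 87.0 ± 0.389% and 82.8 ± 1.08% of F13a1-negative cells. They nonetheless held fewer Elane UMIs per cell, 0.553 ± 0.0137 of the number in negative cells. Trem2-positive cells were alike, with Elane in 96.3 ± 1.44% and Prtn3 in all 243 cells. Ccr2-positive cells had these proteases less often, with Elane in 68.3 ± 1.44% against 83.4 ± 0.817% and Prtn3 in 75.4 ± 0.344% against 92.4 ± 0.151%. The pool includes the 335 Irf8 cells with low Mpo and at least 3 Cd74 UMIs. Of these, 67.6 ± 2.01% had a Ccr2 UMI, but only 10.2 ± 5.34% had one of Elane and 10.6 ± 1.92% one of Prtn3. Co-detection was not split by Cd74, so the part of these cells in the shares of any of the 9 genes was not tested. The share in erythroid-like cells, taken as background, was 11.6% for Elane and 15.6% for Prtn3.

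Cebpe, the factor of granule maturation, and Gfi1, a repressor of monocyte genes in neutrophil precursors, were at the other end. Cebpe was found in 5.92 ± 1.10% of F13a1-positive against 34.002 ± 1.94% of F13a1-negative cells, and in 2.37 to 4.19% of cells positive for the other 7 genes apart from Slpi, against a background of 0.494%. Fcnb, a secreted lectin of early neutrophil precursors, was in 3.54 to 7.31% of cells positive for those 8 genes against 26.6 to 40.9% of negative cells, and Gfi1 in 0 to 0.846% against 1.92 to 2.90%. Ms4a3, a granulocyte-monocyte progenitor marker, was intermediate with 37.9 to 58.7% against 66.5 to 78.0%. For Cebpe, Fcnb, Gfi1 and Ms4a3 the positive cells were lower in all 3 libraries for all 8 genes. Ap3s1 (31.6 to 46.3% against 47.2 to 52.4%) and Csf3r (0.709 to 4.48% against 5.18 to 6.66%) showed this in all 3 libraries for 5 and 7 of the 8 genes, and Cebpa, in 0.236 to 2.74% against 2.44 to 2.74%, for 4 of 8.

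Slpi stood apart. Cebpe was present in 18.5 ± 2.70% of Slpi-positive against 32.0 ± 1.08% of Slpi-negative cells and Fcnb in 19.2 ± 3.04% against 31.3 ± 1.04%, and Slpi-positive cells held as much Prtn3 as negative ones or more (1.12 ± 0.0132 times the UMIs per cell). The secondary granule and calprotectin genes followed the same split. Positive cells of the other 8 genes held 0.0112 to 0.0672 of the late neutrophil list UMIs of negative cells, and Slpi-positive cells 0.464 ± 0.0246. Camp (9.59 to 14.0%), Ngp (5.58 to 14.8%), S100a8 (30.1 to 36.6%) and S100a9 (14.2 to 22.8%) were found in cells positive for the 8 genes. These shares were near or under those of erythroid-like cells at the same depth (15.8, 11.7, 36.3 and 24.2%) and cannot be told from background. In Irf8 cells with low Mpo, S100a8 had 113, 957 and 1723 CPM in libraries a, b and c. The shares of these cells with a UMI of S100a8 were 20.4, 37.4 and 46.1%. The source of these UMIs was not tested. Lcn2 (0.658 to 4.90% against 13.03 to 19.0%), Chil3 (2.68 to 7.59% against 17.3 to 25.3%), Ltf (0 to 0.880% against 2.99 to 4.57%) and Cd177 (0 to 1.09% against 2.99 to 4.50%) were also lower in cells positive for the 8 genes. Ly6g had no UMI in cells positive for any of the 9, and Mmp8, in 0.236 to 0.965% of cells positive for the 8 genes against 0.186 to 0.349% of negative cells, was lower in all 3 libraries for none of the 8. Without thinning, the share of cells with any late neutrophil UMI was lower in all 3 libraries for 2 of the 9 genes in place of 9.

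**Figure D5:**
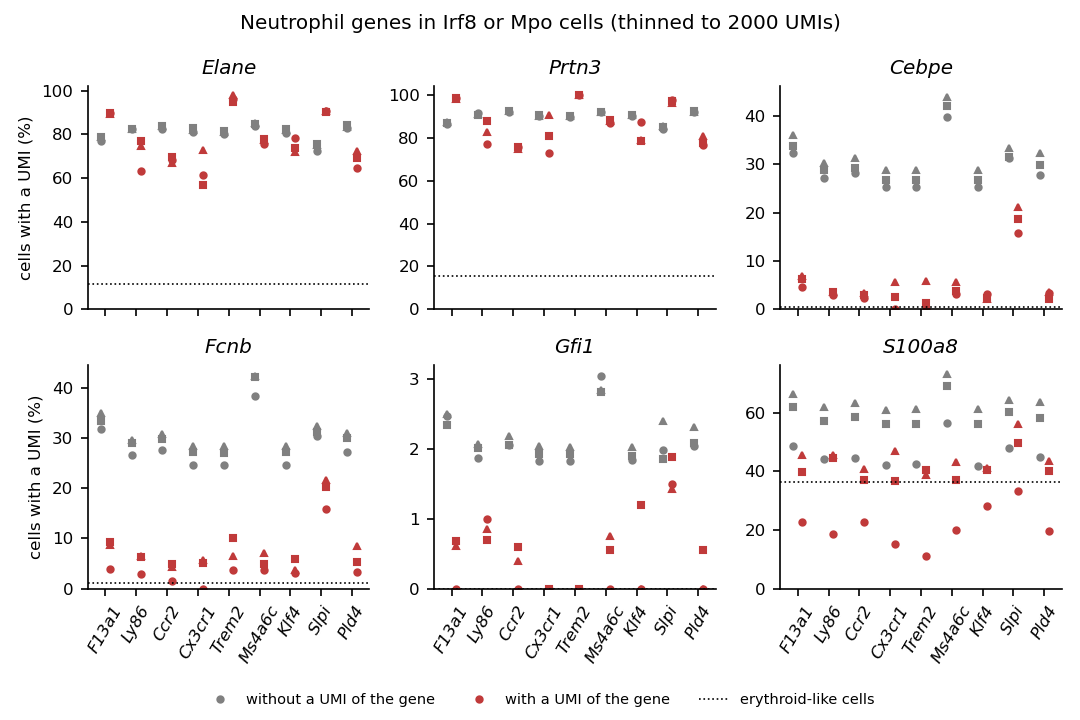
Percent of Irf8 or Mpo cells (thinned to 2000 UMIs) with a UMI of 6 neutrophil genes, for cells with (red) and without (grey) a UMI of each of the 9 genes. Circles, squares and triangles are Lin-kit+ libraries a, b and c, and the dotted line is the share in erythroid-like cells (11.6% for Elane, 0.494% for Cebpe, 36.3% for S100a8). Cebpe and Fcnb separate the 2 kinds of cells for every gene, least for Slpi.

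The same division was then followed with lists that hold none of the 9 genes. These lists too were chosen with earlier results of these data known. Mpo cells with Irf8 were compared with Mpo cells without it, within libraries. This comparison was added after the data were seen and splits cells by Irf8 counts of the same data. Its p-values are therefore no independent support for the division. Of 9857 genes tested by edgeR, 2041 were higher and 1842 (18.7%) lower in cells with Irf8 (scaled by library totals, 3508 and 1290, with the median log2 difference of all genes at 0.16 in place of 0.03). In the monocyte list 11 of 12 genes rose, with a median log2 difference of 1.57, led by Ctss at 2.29 ± 0.07 (log2 ± SE, edgeR adjusted p = 1.80e-22), Fcgr1 at 1.95 ± 0.50 (0.00209) and Csf1r at 1.94 ± 0.09 (4.73e-17), whereas Lyz2 fell by 0.33 ± 0.04 (1.86e-07). In the early neutrophil list 9 of 10 genes fell, with a median of -1.19, led by Fcnb at -3.92 ± 0.06 (8.07e-29), Cebpe at -3.79 ± 0.06 (3.13e-29) and Gfi1 at -2.92 ± 0.19 (1.53e-13), and Cebpa did not pass (-0.06 ± 0.12, 0.753). Of 9 late neutrophil genes tested 8 fell, led by Camp at -5.09 ± 0.34 (1.65e-13), and Mmp8 rose by 1.68 ± 0.28 (1.42e-05), from 1.15 ± 0.566 to 4.38 ± 0.872 CPM in the sums of all UMIs. Markers of some other lineages fell too, namely 5 of 5 mast or basophil genes tested (median -3.95), 3 of 3 eosinophil (-4.46), 3 of 3 megakaryocyte (-2.36) and 3 of 3 erythroid genes (-2.34). The fall was thus not particular to neutrophil genes. Of 4 lymphoid-primed genes tested, however, 2 rose and 0 fell (median 0.49). Among 4 stem cell genes 1 rose and 2 fell, and among 3 macrophage genes 1 rose and 1 fell. For B-lymphoid genes 1 of 2 rose, and the 1 T or NK gene tested fell. All 6 dendritic genes tested rose as well, with a median of 1.32, led by Cd74 at 2.46 ± 0.18 (1.65e-12), and their part in the values of the 9 genes in this comparison was not tested. Without library as a replicate block, 1972 genes passed in all in place of 3883, and with DESeq2 1780 did. In this fit the 9 genes, given as a description, had log2 differences of 1.25 ± 0.03 (Slpi) to 2.52 ± 0.12 (Klf4).

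Irf8 cells with low Mpo were compared with Mpo cells without Irf8 in the same way. These cells were split by Irf8 and Mpo counts of the same data. The p-values of this comparison are therefore no independent support for the division either. Of 9222 genes tested, 46.2% differed, 24.8% being higher and 21.4% lower in Irf8 cells (by library totals, 3506 and 1285 genes in place of 2283 and 1974, median 0.24 in place of 0.04). All 11 dendritic genes tested rose, led by Cd74 at 9.20 ± 0.12 (edgeR adjusted p = 4.37e-25), H2-Eb1 at 8.94 ± 0.13 (1.60e-24) and H2-Aa at 8.84 ± 0.11 (1.65e-25). In the monocyte list 8 of 11 genes rose, led by Ctss at 3.27 ± 0.08 (7.59e-20), Psap at 3.08 ± 0.06 (7.74e-22) and Mpeg1 at 3.06 ± 0.10 (1.91e-17), and Ly6c2 (-1.82 ± 0.14, 9.96e-11), Ccl9 (-0.89 ± 0.06, 3.73e-11) and Lyz2 (-0.78 ± 0.10, 3.45e-07) fell. All 10 early and all 8 late neutrophil genes tested fell, with medians of -3.86 and -3.80. All 5 lymphoid-primed genes rose, with Il7r at 6.22 ± 0.50 (2.88e-10) and Dntt at 5.99 ± 0.16 (1.94e-19). All 14 mitosis genes rose by a median of 0.69, led by Cenpf at 1.47 ± 0.09 (2.77e-12). The S phase list did not move with them, since 3 of its 14 genes rose and 4 fell, with a median of -0.13. Of 2 macrophage genes tested, 0 rose and 1 fell. In this fit, again as a description, the log2 differences were -0.34 ± 0.07 for Slpi, 0.54 ± 0.11 for F13a1, 0.69 ± 0.23 for Trem2, 1.82 ± 0.06 for Ms4a6c and 2.36 to 2.93 for the other 5. That of F13a1 was -0.15 when 1 Mpo UMI made an Mpo cell and -0.14 when 2 Irf8 UMIs made an Irf8 cell, that of Trem2 -0.34 under the latter, and that of Slpi 0.21 when 6 Mpo UMIs made an Mpo cell, so the directions of these 3 rest on the thresholds. Markers of dendritic and lymphoid-primed cells thus moved with this comparison, and the levels with and without Cd74 cells bear on the dendritic part, while the part of lymphoid-primed cells was not tested.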

How the data were processed

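UMI counts per gene and cell were deposited by the authors as one raw table of 5 barcode suffixes, holding genes seen in at least 3 cells, made with Cell Ranger (1.3 and 2.1 are named in the submitters' processing notes, with Seurat 2.3.4) on mm10. Nothing was normalized in it. Suffixes were matched to populations through cell numbers. Counts were summed per library for edgeR 4.0.16 quasi-likelihood tests (TMM, Benjamini-Hochberg over all genes tested, threshold 0.05, R 4.3.3), with library as a block where both sums came from the same libraries. Cells were clustered with scanpy 1.11.5 and Leiden (2000 variable genes, 20 components, resolution 1), leaving out the 9 genes and Fgd5, and a cluster was named when 3 markers were 2-fold higher in it and seen in 5% of its cells, unless another list had more markers, or B-lymphoid and T or NK markers stood together, among its 10 leading genes (no cluster was unnamed for low depth). For shares and levels by Irf8 and Mpo, cells were thinned to 2000 UMIs. Doublets were called with Scrublet but kept. Intervals are 95% Poisson intervals. The edgeR step was tested on simulated counts. The 9 genes and all lists were chosen with earlier results of these data known. Named list genes were the leading ones by fitted change in each direction. Alternatives were library totals, DESeq2 1.42.0, no filter, cell and doublet filters, other thresholds and depths, and each library left out.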

Additional observations from a re-analysis of the deposited data

How the results depend on the processing

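Of the values that answer a comparison, 61 recomputed ones stayed within 1.5 times their first value and 4 did not. With DESeq2, 2580 genes in place of 4257 passed between Irf8 cells with low Mpo and Mpo cells, and 1780 in place of 3883 between Mpo cells with and without Irf8. The latter count was 1972 with no replicate block, the block being the library that both sums came from, and the former 3220. Without thinning, the share of cells with a late neutrophil UMI was lower among positive than negative cells in every library for 2 in place of 9 genes. Leaving out 1 library gave 5964 to 7668 genes between sorts, 2886 to 4397 for Irf8 against Mpo cells and 2721 to 3813 for Mpo cells with and without Irf8. Reversed log2 differences of Irf8 from Mpo cells were -0.15 (F13a1, 1 Mpo UMI), -0.14 (F13a1, 2 Irf8 UMIs), -0.34 (Trem2, 2 Irf8 UMIs) and 0.21 (Slpi, 6 Mpo UMIs). Reversed log2 ratios of cells with both over low Mpo were, without dendritic-like clusters, 0.0497 for Ly86, 0.86 for Ccr2, 0.20 for Klf4 and 0.16 for Pld4, 0.30 for Ccr2 with fewer than 3 Cd74 UMIs, and for Ms4a6c -0.0814 (1 Mpo UMI), -0.0058 (2 Irf8 UMIs) and -0.14 (1000 UMIs). Without thinning, the difference from negative to positive cells reversed to 1.11 percentage points for Cx3cr1 in the early list, and in the late list to 0.422 for F13a1, 1.54 for Trem2, 0.937 for Klf4 and 6.34 for Slpi. The causes were not tested. No number pairs reporter-positive with Lin-kit+ libraries. Cx3cr1, Trem2 and Klf4 had the fewest UMIs of the 9 genes in Lin-kit+ cells.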
